A study of Mus musculus with 6 samples.

Results

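The 36 genes described here encode the path of a fatty acid through the heart muscle cell, from uptake and storage to mitochondrial oxidation. They were chosen by gene symbol for their known roles, with earlier results of these data known, so counts among them are not independent evidence. They were divided into 7 steps. These were uptake and binding (6 genes), storage and lipolysis (2), activation and thioesterases (4) and the carnitine shuttle (5). The others were the core enzymes of beta-oxidation (12), its auxiliary enzymes (4) and electron transfer (3). All 36 were listed among the 13003 genes of the deposited tables, and all 36 passed the filter on low counts and were tested. The lowest count of any of them in any library was 421 tags.

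The adult heart draws most of its ATP from fatty acids. Lipases free fatty acids from circulating lipoproteins, transporters carry them across the membrane, binding proteins ferry them through the cytosol, and acyl-CoA synthetases activate them. The carnitine shuttle moves the acyl groups into the mitochondrial matrix, where each turn of beta-oxidation removes an acetyl unit by dehydrogenation, hydration, a further dehydrogenation and thiolysis, and the electrons of the dehydrogenases reach the respiratory chain through the electron transfer flavoprotein. Many genes of the path are targets of the nuclear receptors of the PPAR and ERR families and of the coactivator PGC-1.

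RNA was sequenced from the ventricular myocardium of 3 WT mice and 3 mice homozygous for *Dst-b* E2610Ter. This nonsense allele, made by genome editing on C57BL/6J, truncates the muscle isoform of dystonin, a cytoskeletal linker. By qPCR the study found less *Dst-b* mRNA in mutant hearts and no change in *Dst-a*, the neural isoform. The mice were 14 to 19 months old, no treatment is named, and the allele is a germline one, not confined to the heart. The WT libraries carry replicate numbers 1, 3 and 4 and the mutant libraries 1, 2 and 3. The study asked by RNA-seq which genes differ in the hearts of the mutants, and the comparison below asks it of fatty acid metabolism.

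Depth was 40693854 to 57580110 tags per library. Summed over all isoforms, *Dst* itself was at 423 to 473 CPM in WT and 414 to 457 CPM in mutants (log2 fold change -0.061, standard error 0.065), so the gene total does not check the labels. Mutant replicate 2 stood apart in sex-linked genes: *Xist*, the RNA of the inactive X chromosome, was at 204 CPM there and at 0.025 to 0.30 CPM in the other 5 libraries, and the Y-linked genes *Ddx3y*, *Eif2s3y*, *Kdm5d* and *Uty* had 0 tags there and 885 to 6375 tags in each of the others. The labels give no sex, and results are given below with and without this library. *Myl2*, the ventricular light chain, was at 19015 to 22135 CPM and its atrial counterpart *Myl7* at 13.9 to 144 CPM. Markers of cardiomyocytes summed to 122337 to 125702 CPM in WT and 118795 to 132603 CPM in mutants, and those of pericytes to 821 to 899.8 CPM and 606 to 728 CPM.

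Of the 36 genes, 5 were called lower in the mutant hearts and 0 higher. They were *Fabp3* and *Lpl* of the uptake step, *Hadhb* of the core enzymes, and *Ech1* and *Eci1* of the auxiliary enzymes. Genes were tested by the quasi-likelihood test of edgeR, with Benjamini-Hochberg adjustment across all 12955 tested, and were called where p was below 0.01 and its adjusted value below 0.1. That rule called 4.64% of all genes, 1.84% lower and 2.8% higher. An unadjusted p under 0.05 was reached by 12 of the 36 in the lower direction (7.85% of all genes) and by 0 in the higher direction (8.7%), and DESeq2 also called 0 higher. In 12 of the 36 every mutant library lay below every WT library, against 10.5% of all genes, and in 0 of the 36 every mutant library lay above (11.4%). The log2 fold change was negative in 31 of the 36, against 50.0% of all genes, with a median of -0.14 against 0.00 over all genes. Among the 279 genes at or above the median level of the 36 (475 CPM), 7.53% were called lower, 66.7% had a negative log2 fold change, and the median log2 fold change was -0.060. The 279 include the more abundant of the 36 themselves. All 36 log2 fold changes lay between -0.43 and 0.14.

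**Figure D1:**
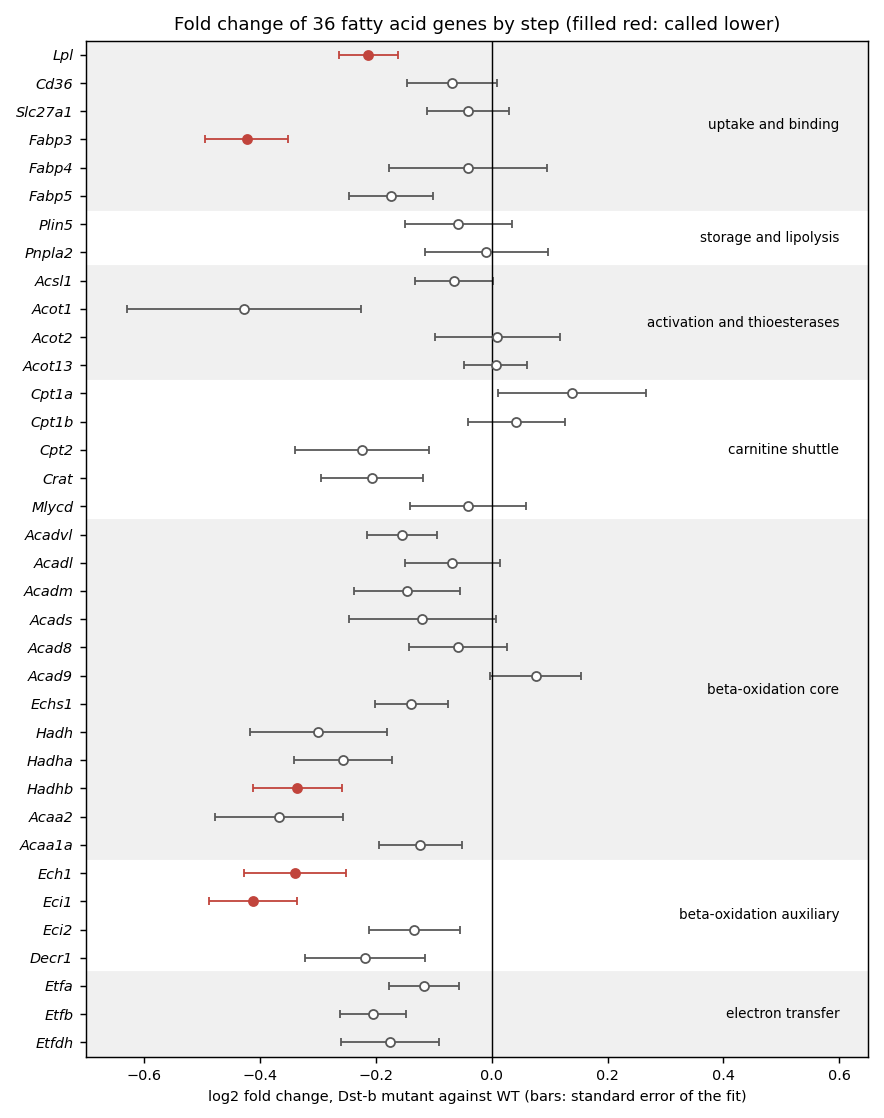
Log2 fold change (x axis, Dst-b mutant against WT) of the 36 fatty acid genes, grouped by step (shaded bands), with bars for the standard error of edgeR's fit over 3 WT and 3 mutant mice. The 5 filled red points are the genes called lower, and 31 of the 36 points lie left of 0.

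The path starts with uptake and binding. *Fabp3*, which encodes the heart-type fatty acid-binding protein of the cardiomyocyte cytosol, was at 5837, 5600.2 and 6015 CPM (tags scaled to the TMM-corrected library total) in WT replicates 1, 3 and 4 and at 4403, 3898 and 4722 CPM in mutant replicates 1, 2 and 3. The groups did not overlap, and the mutant libraries differed among themselves more than the WT libraries. The mean was 5817 ± 208 CPM (SD, n = 3) in WT and 4341 ± 415 CPM (SD, n = 3) in mutants, so *Fabp3* fell by 25.4% (log2 fold change -0.42, standard error 0.072, edgeR quasi-likelihood adjusted p = 0.0172). The call was kept without each of the 6 libraries in turn, with log2 fold changes of -0.49 to -0.36. *Fabp3* lies on chromosome 4 (chr4:130308738-130315463, plus strand), where 161 bases of its exons overlap genes of the opposite strand (*Gm10570* and *Zcchc17*), and whether counting used strand is not stated. The 250 bases before its start site (chr4:130308488-130308737, GRCm38.p6, RefSeq) are shown because *Fabp3* had the lowest adjusted p of the 36 genes. They hold no GC box (GGGCGG on either strand), so no letter is in capitals.
Fabp3 upstream: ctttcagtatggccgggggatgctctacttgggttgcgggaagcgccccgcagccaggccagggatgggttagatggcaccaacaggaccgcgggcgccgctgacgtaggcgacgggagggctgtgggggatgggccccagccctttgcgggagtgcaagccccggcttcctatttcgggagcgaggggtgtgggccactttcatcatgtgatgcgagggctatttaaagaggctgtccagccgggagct

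*Lpl* encodes lipoprotein lipase, which is made by cardiomyocytes and releases fatty acids from lipoproteins at the capillary wall. It was at 5217, 5378 and 5419 CPM in WT and at 4442, 4717 and 4659.8 CPM in mutants. It was the one called gene with mutant replicate 2 above both other mutants, and its groups were narrow. *Lpl* fell by 13.7% (log2 fold change -0.21, standard error 0.051, edgeR quasi-likelihood adjusted p = 0.0639). The call was lost without mutant replicate 1 and without each of the 3 WT libraries in turn, with adjusted p of up to 0.207.

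The other 4 genes of the step were not called. *Cd36*, the main long-chain fatty acid transporter of the muscle membrane, was at 3886, 4033 and 3313 CPM in WT and 3665, 3342 and 3706 CPM in mutants (log2 fold change -0.068, standard error 0.078). *Slc27a1*, a fatty acid transport protein with acyl-CoA synthetase activity, was at 176 to 191 CPM in WT and 162 to 188 CPM in mutants. *Fabp4*, the binding protein of adipocytes and of capillary endothelium, overlapped widely at 1539, 1475 and 1019 CPM in WT and 1454, 1227 and 1239 CPM in mutants. *Fabp5*, a binding protein also found in capillary endothelium, was at 66.1, 62.6 and 60.5 CPM in WT and lower in each mutant, at 53.7, 59.8 and 54.3 CPM, without passing the test (log2 fold change -0.17, edgeR adjusted p = 0.262). Of the 12 endothelial markers, 2 (*Tie1* and *Egfl7*) were called lower (1.84% of all genes). A negative log2 fold change was found in 11 (50.0% of all genes), with a median of -0.15. In 5 of the 12 every mutant library lay below every WT library (10.5% of all genes). Their summed level was 1712 to 2044 CPM in WT and 1661 to 1915 CPM in mutants. Of the 12 adipocyte markers, 7 were listed and 0 called, and *Adipoq*, the defining one, was at 0.80 to 1.90 CPM in all libraries. Of the 7, 6 had a positive log2 fold change (median 0.54, and 0.18 without mutant replicate 2). Their summed level was 50.5 to 80.7 CPM in WT and 70.5 to 88.9 CPM in mutants. The part of endothelial cells and adipocytes in the values of this step was not tested. In bulk tissue a different number of cells of a type cannot be told apart from a different amount of RNA per cell.

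In the storage and lipolysis step 0 of 2 genes were called. *Plin5*, the perilipin that coats lipid droplets in oxidative tissue and tethers them to mitochondria, was at 187, 192 and 151 CPM in WT and 171, 159 and 179.6 CPM in mutants (log2 fold change -0.058, standard error 0.092). *Pnpla2*, the adipose triglyceride lipase that takes the first fatty acid from a stored triglyceride, was at 374, 399 and 323 CPM in WT and 347, 321 and 420.1 CPM in mutants (log2 fold change -0.0093, standard error 0.11). In both genes the WT and mutant values overlapped.

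In the activation step 0 of 4 genes were called. *Acsl1*, the main long-chain acyl-CoA synthetase of the heart, was at 1035, 973 and 997 CPM in WT and 970.0, 873 and 1029.7 CPM in mutants (log2 fold change -0.065, standard error 0.068). The thioesterases reverse this step by splitting acyl-CoA. Among them the cytosolic *Acot1* had the most negative fold change of all 36 genes but also the largest error (log2 fold change -0.43, standard error 0.20, edgeR adjusted p = 0.327), with 16.01, 13.9 and 12.4 CPM in WT and 10.9, 7.19 and 13.4 CPM in mutants. Without mutant replicate 2 its log2 fold change was -0.22. *Acot1* is a close paralog of its neighbour *Acot2*, with start sites 21641 bases apart on chromosome 12, so reads could have been split between them. The mitochondrial *Acot2* was at 56.6, 59.6 and 52.3 CPM in WT and 56.6, 47.9 and 65.3 CPM in mutants. *Acot13*, a thioesterase associated with mitochondria, was the steadiest of the 4, at 355, 355 and 355 CPM in WT and 349.8, 349 and 371 CPM in mutants (log2 fold change 0.0067, standard error 0.054).

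The carnitine shuttle had 0 called genes among 5 and a median log2 fold change of -0.041. *Cpt1a* and *Cpt1b*, the liver and muscle forms of the outer-membrane carnitine palmitoyltransferase, had positive log2 fold changes of 0.14 (standard error 0.13) and 0.043 (standard error 0.083). *Cpt1a* was at 68.5, 66.5 and 46.4 CPM in WT and 64.9, 68.9 and 66.1 CPM in mutants, so its difference rested on WT replicate 4, and without that library its log2 fold change was -0.019. *Cpt1b* was at 57.8, 51.5 and 52.4 CPM in WT and 54.9, 51.00 and 60.7 CPM in mutants. The deposited tables count *Cpt1b* over 150 bases of exon, against a longest transcript of 2895 bases in GENCODE vM21, of which 2744 bases are shared on the same strand with the readthrough gene *Gm44502*. Its CPM therefore covers a small piece of the transcript and cannot be compared with that of other genes.

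*Cpt2*, the inner-membrane transferase that reforms acyl-CoA in the matrix, was at 207, 198 and 185 CPM in WT and 169, 137 and 199 CPM in mutants (log2 fold change -0.22, standard error 0.12, edgeR adjusted p = 0.371). *Crat*, which exchanges acetyl groups between CoA and carnitine, was at 617, 574 and 633 CPM in WT and 519, 464 and 597 CPM in mutants (log2 fold change -0.21, standard error 0.087, edgeR adjusted p = 0.271). In both genes mutant replicate 3 lay among the WT values and mutant replicate 2 was lowest. *Mlycd*, which removes malonyl-CoA, the inhibitor of the outer-membrane enzyme, was at 71.2 to 84.6 CPM in WT and 67.4 to 86.4 CPM in mutants.

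The core enzymes of beta-oxidation include the mitochondrial trifunctional protein, which carries out the last 3 reactions on long chains. Its beta subunit *Hadhb*, the long-chain thiolase, was at 1673, 1584 and 1725 CPM in WT and 1310.4, 1181 and 1457 CPM in mutants. Its alpha subunit *Hadha*, with the hydratase and dehydrogenase activities, was at 2909, 2827 and 2767 CPM in WT and 2401, 2052 and 2665 CPM in mutants. In both subunits every mutant lay below every WT library, in the same order of mutants, with replicate 3 highest and replicate 2 lowest. *Hadhb* fell by 20.8% (log2 fold change -0.34, standard error 0.077, edgeR quasi-likelihood adjusted p = 0.0551), and the call was lost without WT replicate 1, without WT replicate 4 and without mutant replicate 1 (adjusted p of up to 0.189). *Hadha* did not pass the test (log2 fold change -0.26, standard error 0.085, edgeR adjusted p = 0.167). The RPKM ratio of *Hadhb* to *Hadha* was 1.35 ± 0.076 (SD, n = 3) in WT and 1.28 ± 0.039 (SD, n = 3) in mutants, with overlapping values (two-sided exact permutation test, p = 0.3, adjusted over the 4 ratios compared p = 0.4, where the smallest p possible is 0.1).

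The subunits are encoded head to head on chromosome 5, *Hadha* on the minus strand (chr5:30119423-30154980) and *Hadhb* on the plus strand (chr5:30155253-30184593), with start sites 273 bases apart. The whole interval between the start sites (chr5:30154981-30155252, GRCm38.p6, RefSeq) is shown on the plus strand because both genes had all mutants below WT. The capitals mark its 2 GC boxes, and 60.3% of its bases are G or C.
Hadha-Hadhb interval: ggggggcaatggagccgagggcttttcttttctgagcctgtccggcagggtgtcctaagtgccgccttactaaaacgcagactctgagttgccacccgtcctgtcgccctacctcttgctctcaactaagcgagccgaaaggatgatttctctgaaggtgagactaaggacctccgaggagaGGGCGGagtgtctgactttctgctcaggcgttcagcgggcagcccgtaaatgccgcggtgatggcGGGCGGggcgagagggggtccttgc

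The remaining thiolases and dehydrogenases were not called. *Acaa2*, the mitochondrial thiolase of medium chains, had every mutant below WT and the most negative fold change of the core enzymes, at 1609, 1570.0 and 1712 CPM in WT and 1301, 1021 and 1469 CPM in mutants (log2 fold change -0.37, standard error 0.11, edgeR adjusted p = 0.129). DESeq2 and edgeR's exact test called it, and the study's own lists of lower genes hold it. Limma, the other scalings and filters and the replicate block did not call it. Without a library in turn it was called in 1 of the 6 fits (edgeR adjusted p of up to 0.291). *Acaa1a*, the thiolase of peroxisomes, was at 116, 101 and 115 CPM in WT and 101, 98.7 and 106 CPM in mutants. *Hadh*, the 3-hydroxyacyl-CoA dehydrogenase of medium and short chains, was at 934, 803 and 961 CPM in WT and 761, 591 and 842 CPM in mutants (log2 fold change -0.30, standard error 0.12, edgeR adjusted p = 0.240). *Echs1*, the short-chain enoyl-CoA hydratase, was at 382, 376 and 397 CPM in WT and 336, 336 and 377 CPM in mutants.

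The acyl-CoA dehydrogenases open each turn of the cycle, and 0 of the 6 were called. *Acadvl*, for very long chains at the inner membrane, was at 2178, 2149 and 2217 CPM in WT and at 1935, 1842 and 2101 CPM in mutants, with no overlap but no call (log2 fold change -0.15, standard error 0.060, edgeR adjusted p = 0.230). *Acadvl* shares 976 exonic bases with *Dvl2* on the opposite strand. *Acadl* and *Acadm*, for long and medium chains, had log2 fold changes of -0.068 and -0.15, and their mutant replicate 3 exceeded every WT library. *Acads*, for short chains, had the largest standard error of the 6, with 342, 329 and 372 CPM in WT and 333, 249.5 and 379 CPM in mutants (log2 fold change -0.12, standard error 0.13). *Acad8*, which acts in valine breakdown, was at 72.8 to 83.7 CPM in WT and 68.1 to 81.3 CPM in mutants. *Acad9*, known for its part in assembling respiratory complex I, was the one core gene with a positive log2 fold change (0.076, standard error 0.079), at 59.6, 56.3 and 61.6 CPM in WT and 62.01, 57.4 and 67.8 CPM in mutants.

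The auxiliary enzymes, which prepare the double bonds of unsaturated fatty acids for the cycle, had the most negative median of the 7 steps (log2 fold change -0.28), and 2 of 4 were called. *Eci1*, the mitochondrial enoyl-CoA delta isomerase, was at 444, 427 and 437 CPM in WT and 338, 289 and 355 CPM in mutants. The groups stood clear of each other. *Eci1* fell by 24.9% (log2 fold change -0.41, standard error 0.076, edgeR quasi-likelihood adjusted p = 0.0235), and the call was kept without each of the 6 libraries in turn (adjusted p of up to 0.0845). *Ech1*, a dienoyl-CoA isomerase of mitochondria and peroxisomes, was at 2474, 2639 and 2552 CPM in WT and 1967, 1769 and 2324 CPM in mutants. By mean RPKM in WT it came next after *Fabp3* among the 36, but not apart from *Fabp4* beyond the spread. It fell by 20.95% (log2 fold change -0.34, standard error 0.089, edgeR quasi-likelihood adjusted p = 0.0839), a call kept in 1 of the 6 fits without a library, that without mutant replicate 3.

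*Decr1*, the dienoyl-CoA reductase of the same branch, was at 812, 788 and 833 CPM in WT and 747, 566 and 778 CPM in mutants, with no overlap and a wide spread among mutants (log2 fold change -0.22, standard error 0.10, edgeR adjusted p = 0.326). *Eci2*, the isomerase found in both peroxisomes and mitochondria, was at 273, 253 and 272 CPM in WT and 249, 216 and 264 CPM in mutants. The 250 bases before the start sites of the called pair are given below (GRCm38.p6, RefSeq, plus strand), *Eci1* at chr17:24426433-24426682 and *Ech1* at chr7:28825088-28825337, with GC boxes in capitals.
Eci1 upstream: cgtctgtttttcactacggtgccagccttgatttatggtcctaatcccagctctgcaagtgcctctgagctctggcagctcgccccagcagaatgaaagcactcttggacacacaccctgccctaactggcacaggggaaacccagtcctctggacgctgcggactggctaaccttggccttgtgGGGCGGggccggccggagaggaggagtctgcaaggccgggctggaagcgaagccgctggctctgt
Ech1 upstream: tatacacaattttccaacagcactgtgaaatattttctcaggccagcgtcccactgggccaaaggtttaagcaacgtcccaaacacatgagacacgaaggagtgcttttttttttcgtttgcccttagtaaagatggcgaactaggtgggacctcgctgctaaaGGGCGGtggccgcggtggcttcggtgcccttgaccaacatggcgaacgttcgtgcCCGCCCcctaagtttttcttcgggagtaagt

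Electron transfer from the acyl-CoA dehydrogenases to ubiquinone had 0 called genes among 3, with negative fold changes in all 3. *Etfb*, the beta subunit of the electron transfer flavoprotein, was at 1068, 1102 and 1062 CPM in WT and 907, 903 and 993 CPM in mutants. It missed the threshold by a small margin (log2 fold change -0.21, standard error 0.057, edgeR adjusted p = 0.105). It passed with library totals, median-of-ratios or upper-quartile scaling, with DESeq2 and with limma. It did not pass with edgeR's exact test (adjusted p = 0.170), with either other filter or with the replicate block. Without a library in turn it was called in 1 of the 6 fits (edgeR adjusted p of up to 0.316). Of its exonic bases, 617 are shared with *Gm45233* on the same strand. *Etfa*, the alpha subunit, was at 1580.3, 1574 and 1639 CPM in WT and 1453, 1388 and 1581 CPM in mutants, with mutant replicate 3 inside the WT range. *Etfdh*, the ubiquinone oxidoreductase that accepts the electrons, was at 1125, 1094 and 1118 CPM in WT and 1014, 846 and 1093 CPM in mutants (log2 fold change -0.18, standard error 0.085, edgeR adjusted p = 0.337).

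**Figure D2:**
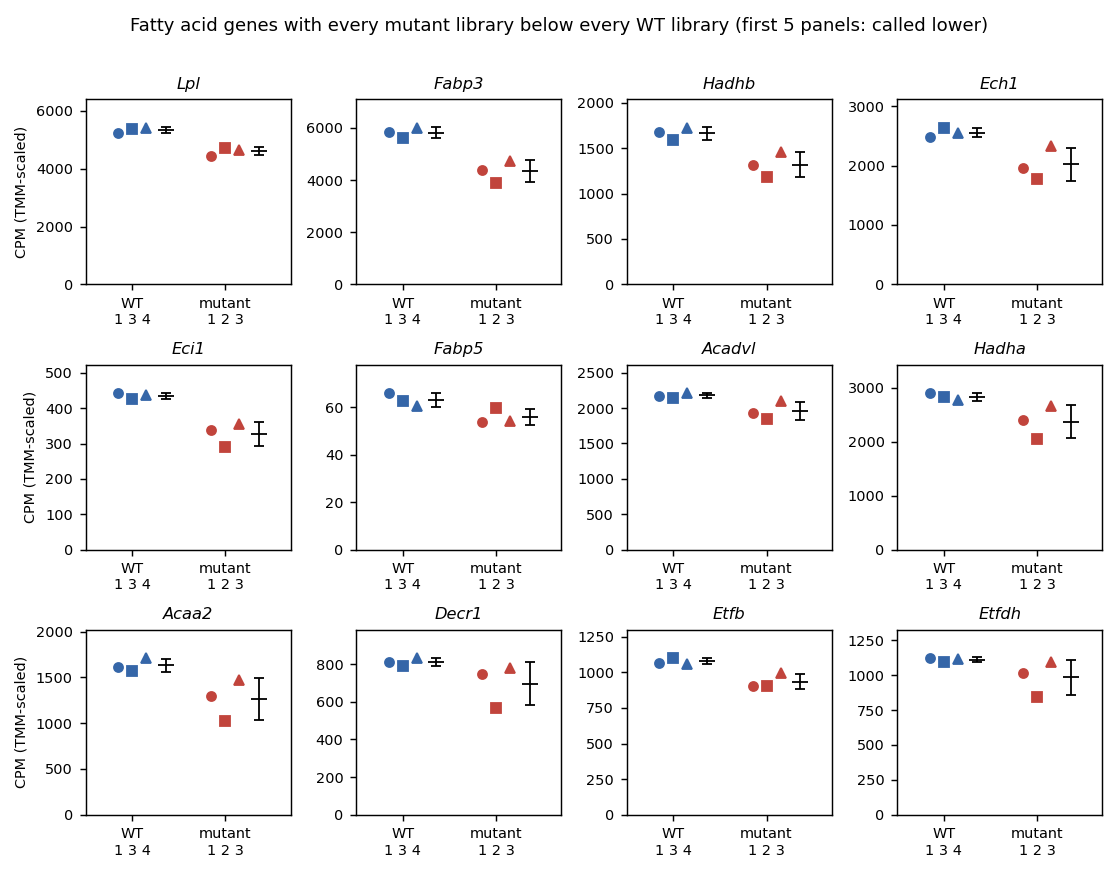
CPM with TMM scaling (y axis, from 0) in each of 3 WT (blue) and 3 Dst-b mutant libraries (red), with the mean and SD at the right of each group, for the 12 fatty acid genes in which every mutant library lay below every WT library. The first 5 panels are the called genes, and in 10 of the 12 panels mutant replicate 2 (red square) is the lowest library.

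Levels per length were compared as RPKM, since CPM rises with the length of a transcript. *Fabp3* led the 36 at 9034 ± 308 RPKM (SD, n = 3) in WT and stayed first in mutants at 6803 ± 545 RPKM. *Ech1* followed at 2560.2 ± 86.4 RPKM in WT and 2041 ± 242 RPKM in mutants, and *Fabp4*, at 2085 ± 441 RPKM in WT and 2048 ± 226 RPKM in mutants, could not be placed above or below *Ech1* beyond its spread. *Etfb* at 1314 ± 28.5, *Etfa* at 1085 ± 23.4, *Acaa2* at 1080.4 ± 47.3 and *Acadm* at 1055 ± 28.5 RPKM in WT came next, and of these neighbours *Etfa*, *Acaa2* and *Acadm* did not differ beyond their spread. The lowest were *Cpt1a* at 13.98 ± 2.83, *Acad9* at 13.4 ± 0.583 and *Acot1* at 10.3 ± 1.33 RPKM in WT. The liver form *Cpt1a* was at 0.039 ± 0.0073 (SD, n = 3) of the RPKM of the muscle form *Cpt1b* in WT and at 0.042 ± 0.0046 in mutants (two-sided exact permutation test, p = 0.7, adjusted over 4 ratios p = 0.7), a ratio that carries the short counted length of *Cpt1b*. RPKM of *Echs1*, *Hadh* and *Etfdh* are low for their abundance, as the deposited tables give them exon lengths of 4630, 4908 and 6621 bases against longest transcripts of 1557, 1789 and 2377 bases in GENCODE vM21. *Lpl* has 6055 against 4115 bases. The reverse holds for *Fabp3*, *Fabp4*, *Ech1* and *Acot1*, with 640, 641, 992 and 1355 against 823, 896, 1267 and 2272 bases. The order by RPKM depends on these lengths. *Crat*, *Hadha* and *Eci2* share 86, 75 and 189 exonic bases with genes of the opposite strand, and *Acad9* shares 559 with a gene of the same strand.

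**Figure D3:**
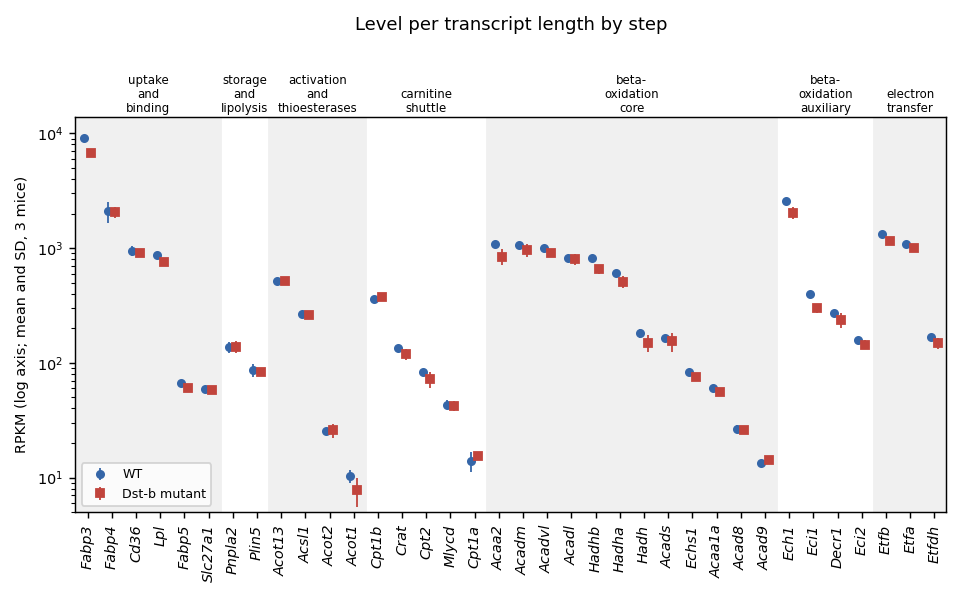
RPKM (y axis, log scale) of the 36 fatty acid genes in WT (blue circles) and Dst-b mutant hearts (red squares), as means with SD over 3 mice, ordered by WT level within each step. Fabp3 is highest in both groups, and the groups differ little against the range between genes.

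The mutant hearts were not alike in these genes. The 36 genes summed to 41559.8, 41001 and 40859 CPM in WT replicates 1, 3 and 4, a range of 4.06% to 4.13% of all tags. In mutant replicates 1, 2 and 3 they summed to 35715, 32317 and 38370.5 CPM, or 3.64%, 3.29% and 3.76% of all tags. All 3 mutants lay below all 3 WT libraries, and the mutants were spread over a far wider range. The mean sum of the mutants was 0.862 of that of WT, and 0.884 of it with the called genes *Fabp3* and *Lpl* left out. Mutant replicate 2 was the lowest of all 6 libraries in 29 of the 36 genes, against 16.6% of all genes tested, and mutant replicate 3 was the highest mutant library in 32 of the 36 (33.8% of all genes). Over the 19 genes of beta-oxidation and electron transfer these counts were 18 and 19. They were 12 and 21 for 22 enzymes of the TCA cycle and the pyruvate dehydrogenase complex. For 22 other genes of mitochondrial acyl-CoA oxidation they were 11 and 16, and for 12 cardiomyocyte markers 2 and 9. The order of the mutant libraries was thus not particular to the 36 genes. The coefficient of variation was larger in mutants than in WT in 31 of the 36 genes, against 43.2% of all genes, with medians of 9.95% in mutants and 4.48% in WT.

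As a log2 ratio to the WT mean, the median over the 19 genes of beta-oxidation and electron transfer was -0.14, -0.38 and -0.054 in mutants 1, 2 and 3, while the 3 WT libraries lay between -0.042 and 0.033. For 22 enzymes of the TCA cycle and the pyruvate dehydrogenase complex the same medians were -0.061, -0.13 and 0.0084 in the mutants, in the same order of libraries.

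**Figure D4:**
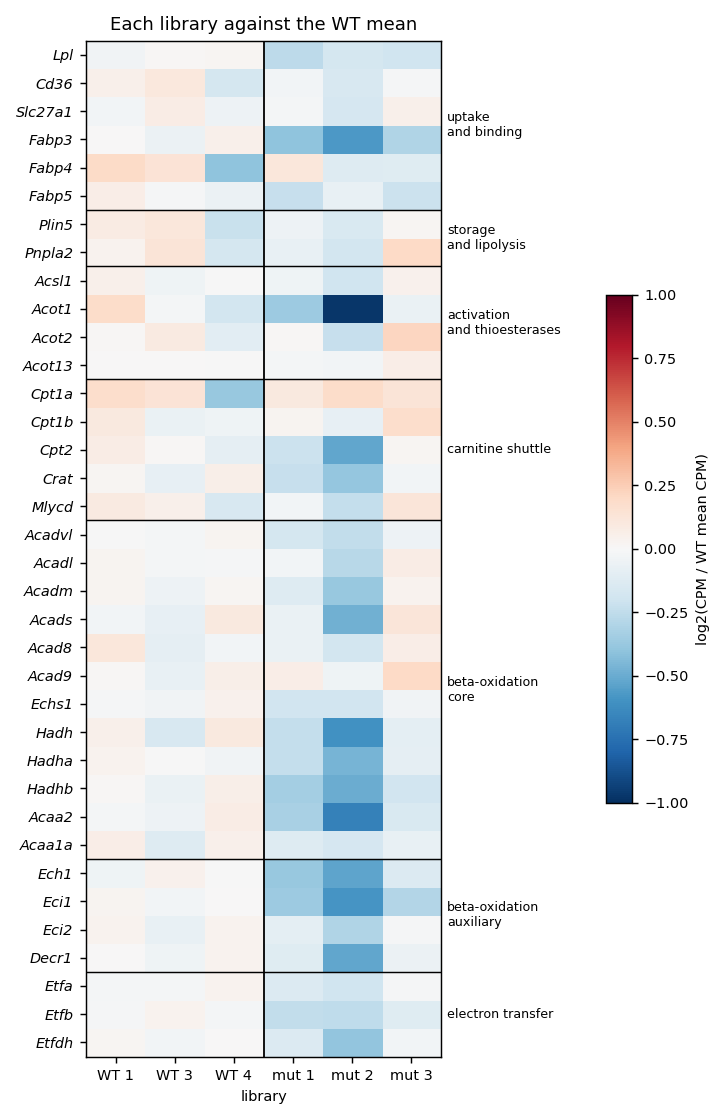
Log2 ratio of each library to the WT mean (colour scale, blue lower and red higher) for the 36 fatty acid genes in rows, grouped by step, with the 3 WT libraries left and the 3 Dst-b mutant libraries right of the line. Mutant replicate 2 is the bluest column in the beta-oxidation rows, and mutant replicate 3 is the palest of the mutants.

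Mutant replicate 2 is also the library with *Xist* and without Y-linked tags, and the part of sex in its lower levels was not tested. Without it, the comparison of 3 WT with 2 mutant hearts was one between libraries that all held Y-linked tags and almost no *Xist*. It called 4 of the 36 genes lower, *Fabp3*, *Lpl*, *Hadhb* and *Eci1* (1.68% of all genes were called lower in that fit), and 0 higher. The log2 fold changes were -0.36 for *Fabp3*, -0.34 for *Eci1*, -0.27 for *Hadhb* and -0.24 for *Lpl*, with edgeR adjusted p of 0.0156, 0.0266, 0.0828 and 0.0522. *Ech1* had a log2 fold change of -0.26 and an adjusted p of 0.128 there. The log2 fold change was negative in 26 of the 36 genes, with a median of -0.082. The medians by step were then -0.13 for uptake and binding, 0.024 for storage, 0.0044 for activation, 0.042 for the carnitine shuttle, -0.11 for the core enzymes, -0.18 for the auxiliary enzymes and -0.083 for electron transfer. *Acadl*, *Acads*, *Mlycd*, *Slc27a1* and *Pnpla2* changed sign, to between 0.012 and 0.065.

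Without mutant replicate 3, by contrast, 10 of the 36 were called lower (1.27% of all genes), the same 5 and *Crat*, *Acadvl*, *Hadha*, *Acaa2* and *Etfb*. Without mutant replicate 1 there were 2 (0.301% of all genes), *Fabp3* and *Eci1*. Without WT replicate 1 the same 2 were called (0.88% of all genes), and without WT replicate 3 *Hadhb* was called beside them (1.14% of all genes).

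WT replicate 4 stood apart in *Pdk4*, *Angptl4* and *Ucp3*, known targets of PPAR signalling that respond to fasting. *Pdk4*, the kinase that shuts off pyruvate dehydrogenase, was at 894, 772 and 108 CPM in WT and 1410.0, 1062 and 1384 CPM in mutants. *Angptl4*, an inhibitor of lipoprotein lipase, was at 33.5, 28.6 and 2.66 CPM in WT and 39.7, 23.7 and 35.9 CPM in mutants. *Ucp3*, a mitochondrial carrier induced by fatty acids, was at 99.7, 81.6 and 23.5 CPM in WT and 85.4, 80.6 and 88.9 CPM in mutants. In all 3 genes the third WT value, that of replicate 4, was the lowest of the 6 libraries by a wide margin.

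The same library was the lowest of all 6 in 4 of the 36 fatty acid genes, a smaller share than the 21.6% of all genes tested. These 4 were *Cd36*, *Fabp4*, *Plin5* and *Cpt1a*, each named above with its values. Without WT replicate 4 their log2 fold changes were -0.15 for *Cd36*, -0.21 for *Fabp4*, -0.16 for *Plin5* and -0.019 for *Cpt1a*, and none of them was called. *Pdk4* went from a log2 fold change of 1.12 (standard error 0.55, edgeR adjusted p = 0.342) to one of 0.63 that passed the test (edgeR adjusted p = 0.0437). Of the 36, 2 were called lower without it (0.949% of all genes), *Fabp3* and *Eci1*. WT replicate 4 also had the lowest summed level of endothelial markers among the WT libraries, 1712 CPM against 2044 and 1989 CPM. Whether either difference bears on the values of the 4 genes was not tested.

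**Figure D5:**
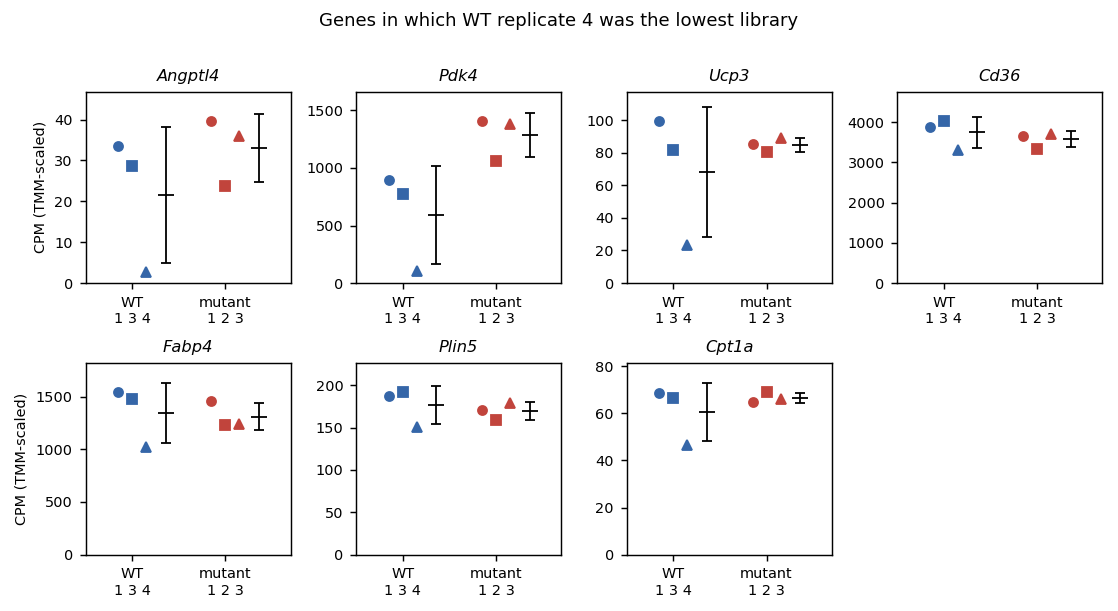
CPM with TMM scaling (y axis, from 0) in each of 3 WT (blue) and 3 Dst-b mutant libraries (red), with the mean and SD at the right of each group, for Angptl4, Pdk4 and Ucp3 and the 4 fatty acid genes in which WT replicate 4 (blue triangle) was the lowest library. In Pdk4, WT replicate 4 is at 108 CPM and the other 5 libraries are between 772 and 1410.0 CPM.

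Around the 36, a wider list of 128 fatty acid genes held 1 gene called higher (2.8% of all genes) and 4 called lower (1.84% of all genes). Their median log2 fold change was -0.024. Without mutant replicate 1, 0 of them were called in either direction, without WT replicate 1 there were 1 higher and 2 lower, and without WT replicate 3 there were 2 each way. Without mutant replicate 2 the list had 2 higher and 5 lower. Over all genes the fits named here called 0.301%, 0.88%, 1.14% and 1.68% lower, in that order. The shares called higher in those fits are not given, so the counts of higher genes have no background beside them. *Slc16a1*, a carrier of lactate and ketone bodies, rose to 232 ± 14.5 CPM (SD, n = 3) from 176 ± 16.6 CPM (log2 fold change 0.40, edgeR quasi-likelihood adjusted p = 0.0323). *Fitm1*, which partitions triglyceride into lipid droplets in muscle, fell to 75.8 ± 6.08 CPM from 99.4 ± 2.62 CPM (log2 fold change -0.39, edgeR adjusted p = 0.0245). Both calls were kept in 5 of the 6 fits without a library and lost without mutant replicate 1. The other called genes were *Acsf2*, an acyl-CoA synthetase of mitochondria, *H2-Ke6*, a hydroxysteroid dehydrogenase also known for mitochondrial fatty acid synthesis, and *Echdc3*, of the enoyl-CoA hydratase family, with log2 fold changes of -0.49, -0.31 and -0.32, and their calls were kept in 2, 2 and 1 of the 6 fits. By group, the 22 other genes of mitochondrial acyl-CoA oxidation, most of them of amino acid breakdown, had 2 called lower and a median of -0.14. In 8 of the 22 all mutants lay below WT, against 10.5% of all genes. The 14 genes of peroxisomal oxidation had 0 called and a median of -0.022, the 11 of carnitine handling and malonyl-CoA 0 called and a median of 0.056, and the 16 of fatty acid synthesis 0 called and a median of -0.088.

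Neighbouring fuel pathways were set beside these by the same counts. Over all genes, 2.8% were called higher, 1.84% were called lower, and 50.0% had a negative log2 fold change. Of 22 enzymes of the TCA cycle and the pyruvate dehydrogenase complex, 1 was called lower (*Sdhc*, a membrane anchor of complex II, log2 fold change -0.25), 19 had a negative log2 fold change, and the median was -0.055. The call of *Sdhc* was kept only without mutant replicate 3, where 2 genes of the list were called lower, and without each of the other 5 libraries 0 were. Of 21 genes of glucose uptake and glycolysis, 2 were called higher, *Hk1* and *Eno1*, and 2 lower, the insulin-responsive transporter *Slc2a4* and the muscle enolase *Eno3*, with a median of 0.0048. In this list 0 genes were called in either direction without mutant replicate 1 or without WT replicate 1, 1 was called higher and 0 lower without WT replicate 4, 0 higher and 2 lower without WT replicate 3, and 1 each way without mutant replicate 2. Of all genes, 0.949%, 1.14% and 1.68% were called lower without WT replicate 4, WT replicate 3 and mutant replicate 2. The shares called higher in those fits are not given. Hexokinase *Hk1* was at 159, 165 and 171 CPM in WT and 211, 235 and 193 CPM in mutants (log2 fold change 0.36, edgeR adjusted p = 0.0411). The differences between these lists and the 36 genes were not tested.

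Among 25 regulators of the path and their common targets, 1 was called higher (2.8% of all genes) and 2 lower (1.84% of all genes). *Ucp2*, a mitochondrial carrier, had the largest change of them, from 113, 119.9 and 64.3 CPM in WT to 308, 434 and 332 CPM in mutants (log2 fold change 1.85, standard error 0.21, edgeR quasi-likelihood adjusted p = 0.00206), and remained called without each library in turn. *Rxra* and *Rxrg*, the retinoid X receptors with which PPARs pair, fell from 60.1 ± 2.07 to 49.5 ± 3.83 CPM and from 85.3 ± 2.08 to 68.5 ± 6.47 CPM (SD, n = 3), with log2 fold changes of -0.28 and -0.32 and edgeR adjusted p of 0.0912 and 0.0721, each kept in 1 of the 6 fits without a library. *Ppara*, the PPAR of oxidative tissue, was at 49.8, 41.4 and 50.7 CPM in WT and 38.8, 44.98 and 40.3 CPM in mutants and was not called (log2 fold change -0.19, edgeR adjusted p = 0.341). *Esrra*, the estrogen-related receptor alpha, had all mutants below WT by a small amount, and *Ppargc1a*, which encodes PGC-1 alpha, overlapped between the groups at 67.8 to 115 CPM in WT and 94.8 to 119.5 CPM in mutants.

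Ratios of paired genes within a library, which do not depend on scaling between libraries, did not separate the groups. The RPKM ratio of *Fabp4* to *Fabp3* was 0.232 ± 0.054 (SD, n = 3) in WT and 0.302 ± 0.036 in mutants (two-sided exact permutation test, p = 0.3), and that of *Etfb* to *Etfa* was 1.21 ± 0.047 in WT and 1.14 ± 0.026 in mutants (p = 0.2 by the same exact test). Adjusted over the 4 ratios compared, both exact tests gave p = 0.4, and 3 against 3 mice cannot give a p under 0.1.

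Promoter sequence was looked up for the 36 genes, and 27 had an entry in the RefSeq table for GRCm38.p6. In the 250 bases before the start site, on either strand, the nuclear receptor half-site AGGTCA occurred in 6 of the 27 (*Acadm*, *Acadvl*, *Cd36*, *Cpt1a*, *Echs1* and *Plin5*), against 14.02% of all 32851 promoters of the table and 13.0% of the 9262 tested genes that it held. The ERR element TNAAGGTCA, which contains the half-site, and the direct repeat of the half-site with 1 base between, bound by PPAR with RXR, occurred in 0 of the 27 (1.14% and 0.0335% of all promoters). The GC box GGGCGG occurred in 19 of the 27 (63.7% of the tested genes) and the CCAAT box in 15 of the 27 (40.3% of the tested genes). Of the called genes, *Fabp3*, *Hadhb*, *Ech1* and *Eci1* had an entry, 3 of the 4 held a GC box and 0 held any of the other letters searched.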

How the data were processed

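Ventricular RNA of 3 WT and 3 mutant mice, 1 library each, was analysed. The authors aligned paired-end reads to mm10 by OLego and derived gene values by Quantas. Per gene they deposited estimated counts of tags and RPKM. The estimated counts, although the deposited labels call them CPM, summed to different totals, and where not whole (8.45% to 13.8% of genes in a library) were rounded. RPKM served for levels and ratios only. That replicates are separate mice comes from the study's methods. What a tag counts (reads or pairs) and any use of strand are not given in the sources used here.

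Genes reaching a CPM of 1 in at least 3 libraries were tested with edgeR 4.0.16 (TMM, quasi-likelihood, genotype only, two-sided) in R 4.3.3. Alternatives were DESeq2 1.42.0, edgeR's exact test, limma 3.58.1 on log2(RPKM + 0.1), other scalings and filters, stricter thresholds, leaving out each library and a replicate block. The test was also run on simulated counts in which some genes rose, and falls of the size reported were not simulated. Plots used Python 3.11.15, pandas 2.3.3 and matplotlib 3.10.9. Positions and sequences came from RefSeq and exon overlaps from GENCODE vM21, both GRCm38. The 36 genes and all lists were chosen with earlier results of these data known, so their counts are not independent evidence. The study's own lists of lower genes hold some of them. Its fatty acid metabolic process term includes *Acaa2*, *Ech1*, *Eci1* and *Hadhb*. Every one of the 36 was named, and of other lists the called genes with the smallest p, at most 4. *Pdk4*, *Angptl4*, *Ucp3*, *Ppara*, *Esrra* and *Ppargc1a* and the sex-linked genes were named after their values were seen. Markers of fibroblasts (1 of 9 called higher), macrophages (0 of 9 called), smooth muscle (1 of 6 higher), pericytes (5 of 6 lower), atria (0 of 6 called) and erythrocytes (0 of 4 called) were counted in the same way, as were cardiomyocyte markers (4 of 12 higher, 1 lower). Over all genes, 2.8% were called higher and 1.84% lower. Of the comparison lists, 1 gene is not reported here.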

Additional observations from a re-analysis of the deposited data

How the results depend on the processing

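Against 5 genes called lower, DESeq2 called 8, a p under 0.001 called 2, an adjusted p under 0.05 called 2 and leaving out a library 2 to 10, and 0 were called higher in each. Over all genes the 601 calls became 1028 with DESeq2, 280 at a p under 0.001, 304 at an adjusted p under 0.05 and 163 to 519 without a library. The median log2 fold change of the 36 lay between -0.20 and -0.082 without a library. Other scalings moved the median of all genes by at most 0.015. Libraries sharing replicate number 1 or 3 had nearly uncorrelated deviations (correlations 0.0072 and -0.049), as had crossed pairs (-0.072 and -0.0027). With 2 shared numbers this cannot decide whether the numbers mark pairs. A fit with the replicate block, on 2 pairs alone, called 2 of the 36 and 966 genes in all, with a median of -0.083.

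A total of 12 of the 36 genes, all of them not called, changed sign under some alternative. Without a library their log2 fold changes ranged from -0.090 to 0.012 for *Slc27a1*, -0.21 to 0.067 for *Fabp4*, -0.16 to 0.000882 for *Plin5*, -0.13 to 0.065 for *Pnpla2*, -0.11 to 0.11 for *Acot2*, -0.023 to 0.017 for *Acot13*, -0.019 to 0.24 for *Cpt1a*, -0.026 to 0.096 for *Cpt1b*, -0.13 to 0.042 for *Mlycd*, -0.14 to 0.020 for *Acadl*, -0.26 to 0.026 for *Acads* and -0.13 to 0.000588 for *Acad8*. *Pnpla2* was at 0.0025 with library totals and 0.0013 with limma, and under the replicate block *Cpt1a* was at -0.044, *Acadl* at 0.020 and *Acads* at 0.080. The cause of these changes was not tested. Every one of the 36 genes had at least 421 tags in every library, and replicates differed by 14.8 to 30.7 times counting noise (chi-square per degree of freedom over all genes), a spread in which mouse and library preparation cannot be told apart.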
